A study of Mus musculus with 9 samples.

Results

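The MYC, MAX and MXD network was followed in sorted SIX2 progenitors as 10 genes, which were chosen by name: *Myc*, *Mycn*, *Mycl*, *Max*, *Mxd1*, *Mxd3*, *Mxd4*, *Mxi1*, *Mnt* and *Mlx*. All 10 are among the 26858 genes of the read count table, and all 10 passed the filter on low counts that left 14990 genes for testing. RNA-seq libraries came from eGFP+ cells of E18.5 kidneys, 4 from *Six2-Qpc*+/- controls and 5 from *Six2-Qpc*-/- mutants. Both groups carried the bacterial artificial chromosome transgene in which the *Six2* promoter drives Cre fused to eGFP, and the fusion protein was also what the cells were sorted on. Control cells were heterozygous for inactivated *Qpc* (*Uqcrq*, a subunit of mitochondrial complex III) and mutant cells carried the floxed allele on both chromosomes, so the comparison is with heterozygous and not with wild-type cells. Litter and sex are not given in the labels, nor whether each library is 1 embryo, so the p-values measure the spread between libraries, which may be partly technical.

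MYC proteins are basic helix-loop-helix leucine zipper transcription factors that bind DNA only as partners of MAX. MYC-MAX dimers recruit histone acetyltransferases and raise the transcription of genes for ribosome assembly, metabolism and the cell cycle. The MXD proteins, MXI1 and MNT compete for the same partner and the same sites, the E-boxes, but recruit SIN3 and histone deacetylases and repress. MLX is a MAX-like partner that serves MondoA (*Mlxip*) and ChREBP (*Mlxipl*), which respond to glucose metabolites, and it can also pair with some MXD proteins and MNT. *Mycn* and *Myc* are both known to be expressed in the cap mesenchyme and to support the growth of the embryonic kidney.

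The E-box is the sequence through which the network acts, and some of its own genes carry one, so the promoters of the members were searched for it. A promoter was taken as the 300 bases from 250 before to 50 after a RefSeq start site (GRCm38.p6), and 9 of the 10 members have at least 1 such window. The *Myc* promoter was not analysed here. The letters searched were CACGTG, which read the same on both strands. They were found for *Max*, *Mnt*, *Mlx* and *Mxd4*, that is 4 of 9 members, against 8.09% of 27025 genes with a window and 11.6% of 10475 tested genes. The windows of *Mycn*, *Mycl*, *Mxd1*, *Mxd3* and *Mxi1* did not hold these letters. The stretches below run 5′ to 3′ on the strand of the gene, with 20 bases on either side and the E-box in capitals.
*Max*, chr12:76962226-76962271, minus strand, 3 bases before the start site: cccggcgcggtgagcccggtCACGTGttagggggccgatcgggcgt
*Mnt*, chr11:74830781-74830826, plus strand, 123 bases before the start site: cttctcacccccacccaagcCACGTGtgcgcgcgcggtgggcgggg
*Mlx*, chr11:101087230-101087275, plus strand, 40 bases before the start site: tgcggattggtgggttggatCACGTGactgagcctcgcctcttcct
*Mxd4*, chr5:34187904-34187949, minus strand, 219 bases before the start site: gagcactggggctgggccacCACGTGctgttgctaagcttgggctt

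Library totals lay between 21040536 and 23986458 counts. *Uqcrq* was at 76.8 to 107 counts per 1000000 counts of the normalized library (CPM) in control and at 16.5 to 28.2 CPM in mutant libraries, so the labels and the targeted gene went together in all 9 libraries. Markers of nephron progenitors were present in both groups, with summed levels of 1658 to 2005 CPM in control and 1852 to 2203 CPM in mutant libraries. The 7 tested progenitor markers had log2 fold changes, mutant against control, of -0.12 (*Meox1*) to 0.30 (*Six2*), with adjusted p-values from 0.131 for *Six2* upwards, above the threshold of 0.05. Other marker sums moved with the genotype. Markers of committed progenitors summed to 327 to 650 CPM in control and 245 to 355 CPM in mutant libraries, with 3 of 6 lower past the threshold. Stromal markers summed to 86.1 to 130 CPM in control and 187 to 584 CPM in mutant libraries, with 5 of 6 higher past the threshold, and were highest in mutant replicate 75. Myeloid markers summed to 2.30 to 5.49 CPM in control and 4.90 to 46.4 CPM in mutant libraries, with 1 of 4 past the threshold. Podocyte, proximal tubule, ureteric bud, endothelial and erythroid markers each summed to at most 30.6 CPM in any library. Of 3 tested endothelial markers 1 was higher past the threshold, *Pecam1* (adjusted p = 0.0469), and 0 tested markers of the other lists in this group passed. *Cdh5* had no reads in 3 of 4 control libraries and 2 to 17 reads in mutant libraries. *Wnt9b* had none in 2 of 4 control and 4 of 5 mutant libraries. The ureteric bud markers *Krt8* and *Calb1* had up to 230 and 18 reads in a control library. They reached 449 reads in mutant replicate 74 and 216 reads in mutant replicate 77, respectively. The part of these other cells in the values of the network was not tested, and in sorted bulk cells fewer cells of a type and less RNA per cell cannot be told apart.

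The most marked feature of the network was that *Mycn* and *Myc* had fold changes of opposite sign. *Mycn* fell to 0.498 times its control level, whereas the level of *Myc* was higher in 4 of 5 mutant libraries than in any control library without passing the threshold. The partner *Max* and the repressors *Mxd1* and *Mnt* had fitted values above control that also missed the threshold, and *Mxd3*, *Mxd4* and *Mxi1* had fold changes near 0. Of the 10 genes, 1 passed the adjusted threshold and it was lower in mutant cells. Among all genes tested 14.8% passed, 7.82% higher and 7.02% lower, so a count of 1 in 10 is close to the background and is not a result about the network as a whole. An unadjusted p-value under 0.05 was found for 5 of the 10 and for 31.4% of all genes tested, and the median log2 fold change was 0.18 against -0.01 over all genes tested. The groups did not overlap for 1 member, *Mnt*, and for 15.2% of all genes tested.

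**Figure D1:**
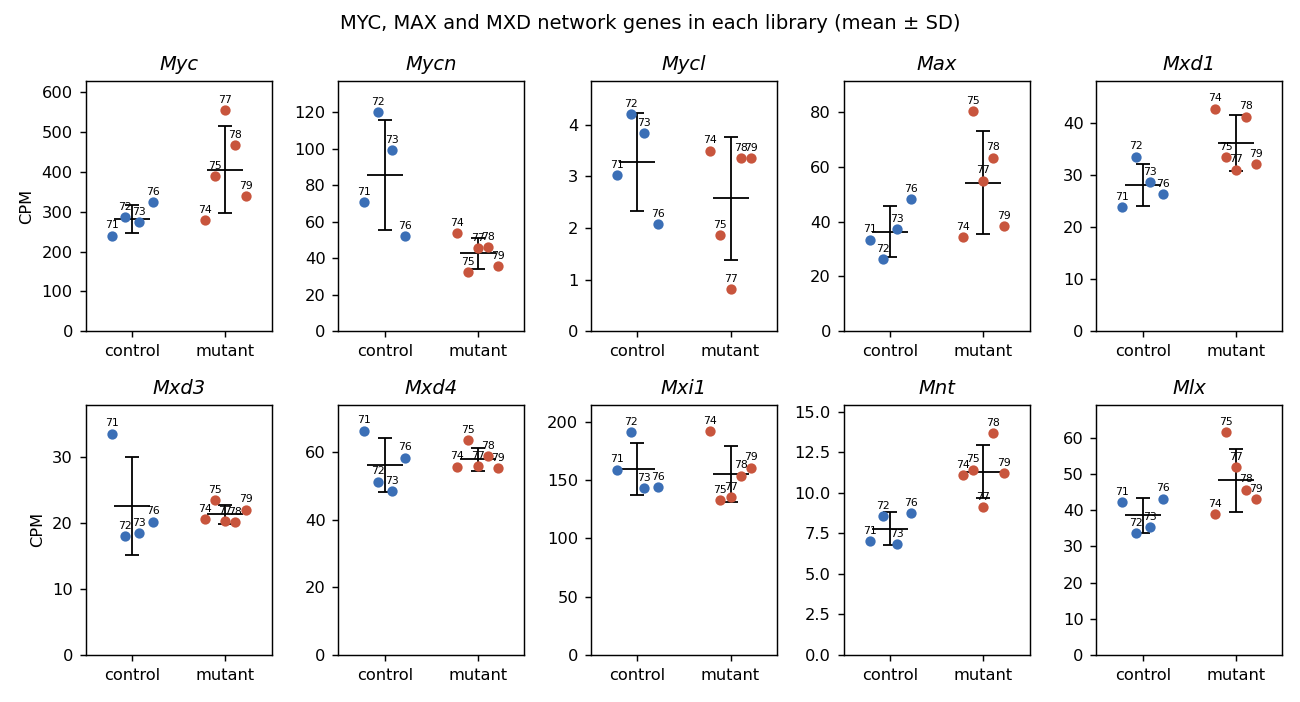
Level of each network gene in CPM (vertical axes, each starting at 0) in the 4 control (blue) and 5 mutant (red) libraries, labelled by replicate number, with mean and SD as black bars. *Mycn* ranges from 52.4 to 120 CPM in control and from 32.4 to 53.6 CPM in mutant libraries, while 4 of the 5 mutant libraries lie above every control library for *Myc*.

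*Mycn* (ENSMUSG00000037169, chromosome 12, 12936096 to 12941914) encodes N-MYC. It had 70.98, 120, 99.4 and 52.4 CPM in control replicates 71, 72, 73 and 76, and 53.6, 32.4, 45.5, 46.3 and 35.9 CPM in mutant replicates 74, 75, 77, 78 and 79. Control replicate 76 was the lowest control and lay just below mutant replicate 74, the highest mutant, and this was the only crossing between the groups. The means were 85.8 ± 30.1 CPM (SD, n = 4) and 42.7 ± 8.56 CPM (SD, n = 5). On the log2 scale *Mycn* changed by -1.01 ± 0.22 (fold change ± standard error; adjusted p = 0.0103), and a 2-sided exact permutation test over libraries gave p = 0.0159. Behind them stood 1241 to 3090 reads in a control and 731 to 1258 reads in a mutant library.

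The fall of *Mycn* passed the threshold in all 17 alternatives of normalization, test, filter, covariate and left-out library, with adjusted p-values between 0.000251 and 0.0388. Its size ranged from -0.78 with 1 surrogate variable to -1.17 without control replicate 76. Control replicate 76, the lowest control for *Mycn*, was also the lowest for committed markers, with 327 CPM against 507 to 650 CPM in the other 3 controls. No exon of another annotated gene overlaps those of *Mycn* or *Myc*, so the lack of strand information does not bear on either.

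*Myc* (ENSMUSG00000022346, chromosome 15, 61985341 to 61990374) encodes c-MYC and was the most abundant member. Control replicates 71, 72, 73 and 76 had 240.2, 287, 274 and 324 CPM, and mutant replicates 74, 75, 77, 78 and 79 had 279, 388, 555, 467 and 339 CPM. Only mutant replicate 74 fell within the control range, and the mutant libraries were spread over a wider range than the controls. This gave a log2 fold change of 0.53 ± 0.18 (SE), an adjusted p-value of 0.0626 and p = 0.0556 in the 2-sided exact permutation test. Of 17 alternatives 4 took *Myc* past the threshold, namely DESeq2 (adjusted p = 0.0251), limma-voom (0.00633), testing every gene with a read (0.0469) and leaving out mutant replicate 74 (0.0119), and the adjusted p-values ranged from 0.00633 to 0.158.

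*Mycl* (chromosome 4, 122995652 to 123002485), which encodes L-MYC, the remaining MYC protein, was weakly expressed. It had 2.07 to 4.21 CPM in control libraries, from 49 to 108 reads, and 0.816 to 3.49 CPM in mutant libraries, from 16 to 82 reads. Mutant replicates 75 and 77 were below the lowest control and the other 3 mutants were inside the control range. With a log2 fold change of -0.35 ± 0.39 (SE; adjusted p = 0.583), a difference was not detectable at this spread.

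Levels per length put the 3 MYC genes on a common scale, CPM per kilobase of the deposited gene length. Genes can be compared on it only as far as these lengths match the transcripts counted. On this scale *Myc* had 118 ± 14.6 in control and 170 ± 45.3 in mutant libraries (SD), *Mycn* 32.1 ± 11.3 and 16.0 ± 3.20, and *Mycl* 0.938 ± 0.271 and 0.735 ± 0.340. The level of *Myc* exceeded that of *Mycn* in every library. The ratio of the levels was 3.78, 2.67, 3.08 and 6.92 in control replicates 71, 72, 73 and 76, and 5.82, 13.4, 13.6, 11.3 and 10.6 in mutant replicates 74, 75, 77, 78 and 79. The highest control and the lowest mutant crossed, and every other mutant library was above every control. *Mycn* made up 12.6 to 27.1% of the summed MYC level in control and 6.83 to 14.6% in mutant libraries.

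*Max* (ENSMUSG00000059436, chromosome 12, 76937269 to 76962248), the partner that MYC and MXD proteins share, varied among the mutants. It had 33.4, 26.4, 37.3 and 48.4 CPM in control replicates 71, 72, 73 and 76, and 34.5, 80.4, 55.0, 63.4 and 38.2 CPM in mutant replicates 74, 75, 77, 78 and 79. Mutant replicates 75, 77 and 78 were above all controls and mutant replicates 74 and 79 were inside the control range. The fitted difference was 0.58 ± 0.24 on the log2 scale (SE; adjusted p = 0.121; 2-sided exact permutation test, p = 0.111). Without mutant replicate 75 it was 0.39, and with 1 surrogate variable 0.28. *Max* passed the threshold with limma-voom (adjusted p = 0.0264) and without mutant replicate 74 (0.0362), out of 17 alternatives. Stromal marker sums in mutant replicates 74, 75, 77, 78 and 79 were 359, 584, 187, 214 and 278 CPM. Their part in the level of *Max* was not tested.

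Among the repressors, *Mxi1* (chromosome 19, 53310506 to 53375810) was the most abundant per length, at 30.9 ± 4.31 CPM per kilobase in control and 30.0 ± 4.64 in mutant libraries (SD). Next came *Mxd4* (chromosome 5, 34173887 to 34187720) at 14.5 ± 2.07 and 14.9 ± 0.898, and *Mxd3* (chromosome 13, 55325168 to 55329758) at 13.0 ± 4.25 and 12.3 ± 0.829. *Mxd4* and *Mxd3* did not differ from each other beyond their spread in control libraries. *Mxd1* (chromosome 6, 86647044 to 86669159) followed at 6.04 ± 0.885 and 7.76 ± 1.17, and *Mnt* (chromosome 11, 74830920 to 74845725) was the lowest at 1.70 ± 0.218 and 2.46 ± 0.352. The same order held for the means of both genotypes. It rests on the deposited gene lengths, which are shorter than the annotated exon bases by uneven amounts (3872 against 8483 for *Mxd4* and 1742 against 2369 for *Mxd3*).

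*Mxi1*, *Mxd4* and *Mxd3* had log2 fold changes of -0.04, 0.04 and -0.08, with standard errors of 0.14, 0.12 and 0.19 and adjusted p-values of 0.870, 0.837 and 0.802. Their sign turned in some alternatives, so no direction is given for them. MXD3 is a member of the family that is known to be expressed in dividing cells, and *Mxd3* stood at 20.2 to 23.6 CPM in the mutants and at 18.0 to 20.3 CPM in control replicates 72, 73 and 76, with control replicate 71 apart at 33.6 CPM. The exons of *Mxd3* overlap those of the more abundant *Prelid1* on the opposite strand over 105 bases, and these unstranded reads cannot be assigned with certainty. *Mxd4* and *Mxi1* likewise share 514 and 194 exon bases with the predicted genes *Gm42846* and *Gm10197* on the opposite strand, whose levels are not known here.

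*Mxd1*, the founding MXD repressor, which is known to rise in differentiating cells, had 23.9, 33.6, 28.7 and 26.4 CPM in control replicates 71, 72, 73 and 76, and 42.8, 33.5, 31.1, 41.3 and 32.2 CPM in mutant replicates 74, 75, 77, 78 and 79. Mutant replicates 74 and 78 were above all controls and the other 3 were within the upper part of the control range. *Mxd1* thus differed by 0.36 ± 0.15 on the log2 scale (SE; adjusted p = 0.119), and passed the threshold in 1 of 17 alternatives, with 1 surrogate variable (adjusted p = 0.0331).

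*Mnt*, a repressor found in nearly all cells that opposes MYC, had 7.03, 8.57, 6.83 and 8.73 CPM in control replicates 71, 72, 73 and 76, and 11.1, 11.4, 9.13, 13.7 and 11.2 CPM in mutant replicates 74, 75, 77, 78 and 79. All 5 mutant values were above all 4 control values, though that of replicate 77 only by a small margin (2-sided exact permutation test, p = 0.0159). The fitted log2 difference was 0.54 ± 0.18 (SE; adjusted p = 0.0651). It passed the threshold with DESeq2 (adjusted p = 0.0202) and limma-voom (0.016) and stayed between 0.46 and 0.62 in all 17 alternatives. Only 162 to 220 reads of *Mnt* were counted in a control and 179 to 278 in a mutant library.

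**Figure D2:**
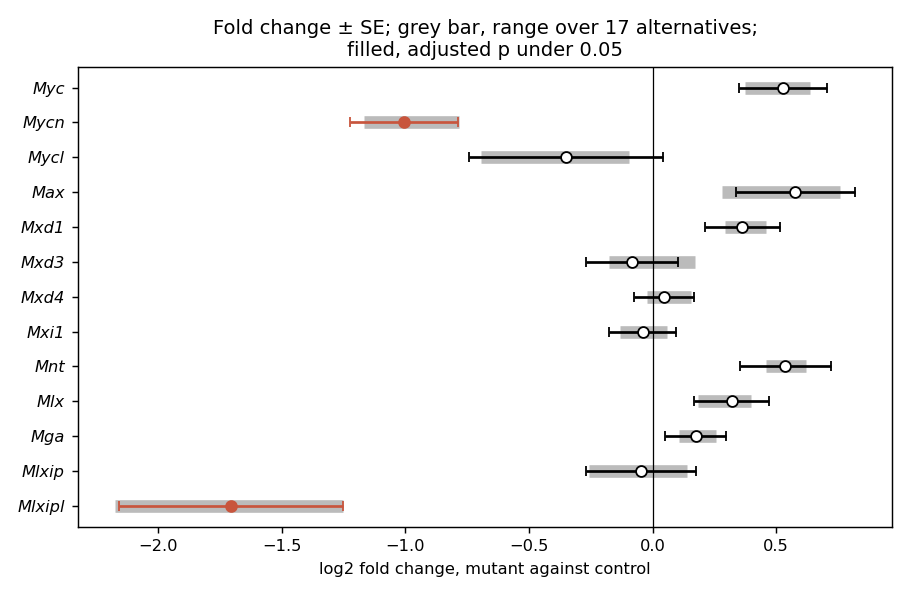
Log2 fold change, mutant against control (horizontal axis), of the 10 network genes and 3 further partners, with the standard error as whiskers and the range over 17 alternatives as a grey bar; filled red points passed an adjusted p-value of 0.05. *Mycn* (-1.01) and *Mlxipl* (-1.70) are the filled points, and the bars of *Mxd3*, *Mxd4*, *Mxi1* and *Mlxip* span 0.

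The balance of the network was described by summing levels per length on each side, with no test since it is a score over chosen genes. The sums rest on the same deposited gene lengths. The MYC side (*Myc*, *Mycn* and *Mycl*) summed to 151 ± 16.3 CPM per kilobase in control and 187 ± 45.1 in mutant libraries (SD), and the repressor side (*Mxd1*, *Mxd3*, *Mxd4*, *Mxi1* and *Mnt*) to 66.1 ± 6.97 and 67.4 ± 5.11. The ratio of the MYC side to the repressor side was 1.73, 2.39, 2.61 and 2.51 in control replicates 71, 72, 73 and 76, and 1.84, 2.68, 4.09, 3.12 and 2.32 in mutant replicates 74, 75, 77, 78 and 79. Mutant replicates 75, 77 and 78 were above all controls and the other 2 were inside the control range. The repressor side thus stayed nearly level between the genotypes, with *Mxi1* at 39.4 to 53.1% of it in every library. *Max* alone was at 13.2 to 24.1 CPM per kilobase in control and 17.2 to 40.1 in mutant libraries, below the MYC sum in all 9.

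**Figure D3:**
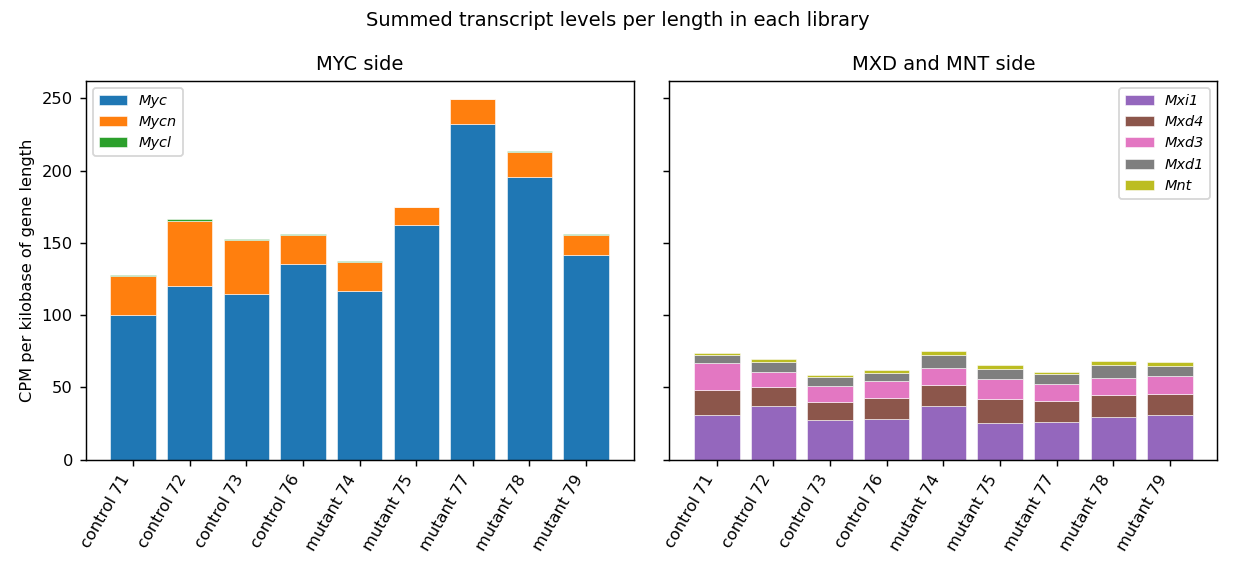
Stacked levels per length (vertical axis, CPM per kilobase of gene length) of the MYC genes (left) and of the repressors (right) in each of the 9 libraries. The *Mycn* segment is 6.83 to 14.6% of the left-hand bar in mutant and 12.6 to 27.1% in control libraries, and the right-hand bars lie between 58.5 and 75.03 in all libraries.

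*Mlx* (chromosome 11, 101087277 to 101092207) had 42.3, 33.7, 35.3 and 43.2 CPM in control replicates 71, 72, 73 and 76, and 39.0, 61.5, 51.9, 45.6 and 43.1 CPM in mutant replicates 74, 75, 77, 78 and 79. Mutant replicates 75, 77 and 78 were above all controls, the same libraries as for *Max*. The fitted log2 difference of *Mlx* was 0.32 ± 0.15 (SE; adjusted p = 0.167), and *Mlx* shares 385 exon bases with *Psmc3ip* on the opposite strand. Of its partners, *Mlxipl* (chromosome 5, 135106891 to 135138382), which encodes ChREBP, fell by 1.70 ± 0.45 on the log2 scale (SE; adjusted p = 0.0248), with means of 8.41 ± 4.58 in control and 2.57 ± 1.51 CPM in mutant libraries (SD). *Mlxipl* and *Mlxip* share 235 and 267 exon bases with *Gm43500* and *Gm15747* on the opposite strand.

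*Mlxipl* had 5.50, 14.7, 8.89 and 4.56 CPM in control replicates 71, 72, 73 and 76, and 4.56, 1.15, 2.81, 0.984 and 3.36 CPM in mutant replicates 74, 75, 77, 78 and 79, so that control replicate 76 and mutant replicate 74 were level, with 108 and 107 reads. Its call was lost without control replicate 72 (adjusted p = 0.0928), without control replicate 73 (0.0636) and with Y-linked expression as a covariate (0.0681), though the log2 fold change stayed at -1.25 or below in all 17 alternatives. *Mlxip* (MondoA, -0.05, adjusted p = 0.911) and *Mga*, a large MAX partner that represses (0.17, adjusted p = 0.358), did not pass. *Txnip*, a known target of MondoA and MLX that restrains glucose uptake, fell from 242 ± 38.1 to 126 ± 34.3 CPM (SD), by 0.94 on the log2 scale (adjusted p = 0.00689), with no overlap, and in all 17 alternatives. *Arrdc4*, its relative and the other gene of this list, had a log2 fold change of -0.09 (adjusted p = 0.716).

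The counts for genes that work with the network stand beside 14.8% past the threshold and 31.4% with an unadjusted p under 0.05 among all genes tested. Of 10 cofactors of MYC, among them *Trrap*, *Kat2a*, *Kat5* and *Wdr5*, 0 passed the edgeR threshold and 0 had an unadjusted p under 0.05; 0 passed with DESeq2 and with limma-voom and 1 with 1 surrogate variable. The smallest adjusted p-value was that of *Kat5* (0.363), which encodes the TIP60 acetyltransferase. Of 8 corepressors of the MXD and MNT side, 3 had an unadjusted p under 0.05, the median log2 fold change was 0.22 and 1 was higher past the threshold, *Sin3b*, a scaffold for histone deacetylases, at 151 to 204 CPM in control and 217 to 321 CPM in mutant libraries (log2 fold change 0.58, standard error 0.14, adjusted p = 0.0159). Its call was lost without control replicate 73 (adjusted p = 0.0591). Of 11 genes of MYC protein turnover, 1 had an unadjusted p under 0.05 and passed the threshold, lower in mutant cells, *Pim2*, a kinase known to phosphorylate and stabilize MYC, at 30.1 to 35.6 CPM in control and 17.3 to 26.2 CPM in mutant libraries (-0.61, standard error 0.15, adjusted p = 0.016). The ubiquitin ligase gene *Fbxw7* had a log2 fold change of -0.01. With 1 surrogate variable 3 corepressors and 3 turnover genes passed, beside 20.8% of all genes. Limma-voom also gave 3 corepressors, beside 32.4% of all genes.

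Known target genes of MYC did not move as one group. Of 26 nucleolar targets, 8 rose, 0 fell and 18 did not pass, and the median log2 fold change was 0.39. This share stands beside 7.82% higher and 7.02% lower among all genes tested. *Gnl3* (nucleostemin, a nucleolar GTPase) rose, with 115 to 140.0 CPM in control and 217 to 386 CPM in mutant libraries (log2 fold change 1.28, standard error 0.16, adjusted p = 0.000715). *Nop2* (0.69), a methyltransferase of ribosomal RNA, *Wdr43* (0.67), of the small subunit processome, and *Nip7* (0.73), of ribosomal RNA maturation, also rose (adjusted p = 0.00654, 0.00324 and 0.0137). The number of nucleolar targets past the threshold was 13 with DESeq2, which called 21.2% of all genes, and 15 with limma-voom, which called 32.4%. It was 5 without control replicate 72, control replicate 73 or mutant replicate 78, where 8.36%, 6.85% and 8.997% of all genes passed. The call of *Nip7* was lost without control replicate 73 (adjusted p = 0.0524).

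Of 16 metabolic targets, 2 rose and 3 fell, beside 7.82% higher and 7.02% lower among all genes tested, with a median of 0.04. The genes that rose encode enzymes of polyamine synthesis: *Odc1*, the rate-limiting ornithine decarboxylase, from 252 ± 20.2 to 404 ± 91.6 CPM (SD; log2 fold change 0.68, adjusted p = 0.0139), and *Srm*, spermidine synthase, from 184 ± 28.1 to 302 ± 51.1 CPM (0.71, adjusted p = 0.0081). The genes that fell are glycolytic: *Eno1*, enolase, with -0.70 (adjusted p = 0.0043), *Ldha*, lactate dehydrogenase A, with -0.66 (adjusted p = 0.00606), and *Pkm*, pyruvate kinase. Not all glycolytic genes of the list fell past the threshold: *Hk2* (0.09, adjusted p = 0.732) and *Gpi1* (-0.24, adjusted p = 0.234) did not pass. The calls of *Odc1*, *Srm*, *Eno1* and *Ldha* held in all 17 alternatives, and that of *Pkm* was lost in 5, without control replicate 71, 72 or 73 or mutant replicate 77 or 78 (adjusted p up to 0.0684). *Eno1* and *Ldha* have near-identical copies elsewhere in the genome, and how reads shared between copies were counted is not given in the sources used here.

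Of 12 cell cycle targets, 1 rose and 2 fell, with a median of -0.12, beside the same 7.82% higher and 7.02% lower among all genes. *Ccnd2*, cyclin D2, rose from 104 ± 9.18 to 165 ± 36.4 CPM (SD; log2 fold change 0.67, adjusted p = 0.0131), whereas *Ccnd1*, cyclin D1, fell by 1.23 on the log2 scale (adjusted p = 0.0438) and *Mcm5*, a subunit of the replicative helicase, by 0.73 (adjusted p = 0.0155). *Ccnd1* is also on the committed progenitor list, and its call was lost in 10 of 17 alternatives, with adjusted p-values up to 0.172; that of *Mcm5* was lost without control replicate 73 (0.0597). Of 11 targets in translation and protein folding, 1 rose, *Hspe1*, the mitochondrial co-chaperonin (0.60, adjusted p = 0.0214), with a median of 0.13 over the list, a count near the 7.82% higher among all genes. It was not past the threshold without control replicate 72, control replicate 73 or mutant replicate 78, and near-identical copies of *Hspe1* make its reads uncertain.

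Of 8 genes that MYC is known to repress, 1 rose and 1 fell, a count not far from the 7.82% higher and 7.02% lower among all genes tested. *Gadd45a*, a growth arrest gene, rose from 9.45 ± 1.31 to 18.3 ± 4.98 CPM (SD; log2 fold change 0.95, adjusted p = 0.0116) with no overlap, and *Ndrg2* fell by 1.01 on the log2 scale (adjusted p = 0.0297), a call that was lost in 10 of 17 alternatives. The cyclin-dependent kinase inhibitor genes *Cdkn1a* (0.20), *Cdkn1b* (0.36), *Cdkn1c* (0.35) and *Cdkn2b* (0.79) did not pass, with adjusted p-values of 0.216 or more. Negative fold changes that did not pass were those of *Ndrg1* (-0.25, adjusted p = 0.484) and *Gas1* (-0.13, adjusted p = 0.646). *Cdkn2b* had few reads, 4 to 46 in control and 3 to 125 in mutant libraries, with the 125 in mutant replicate 75. Several of the genes in these lists also respond to other regulators, and which of them acted here was not tested.

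**Figure D4:**
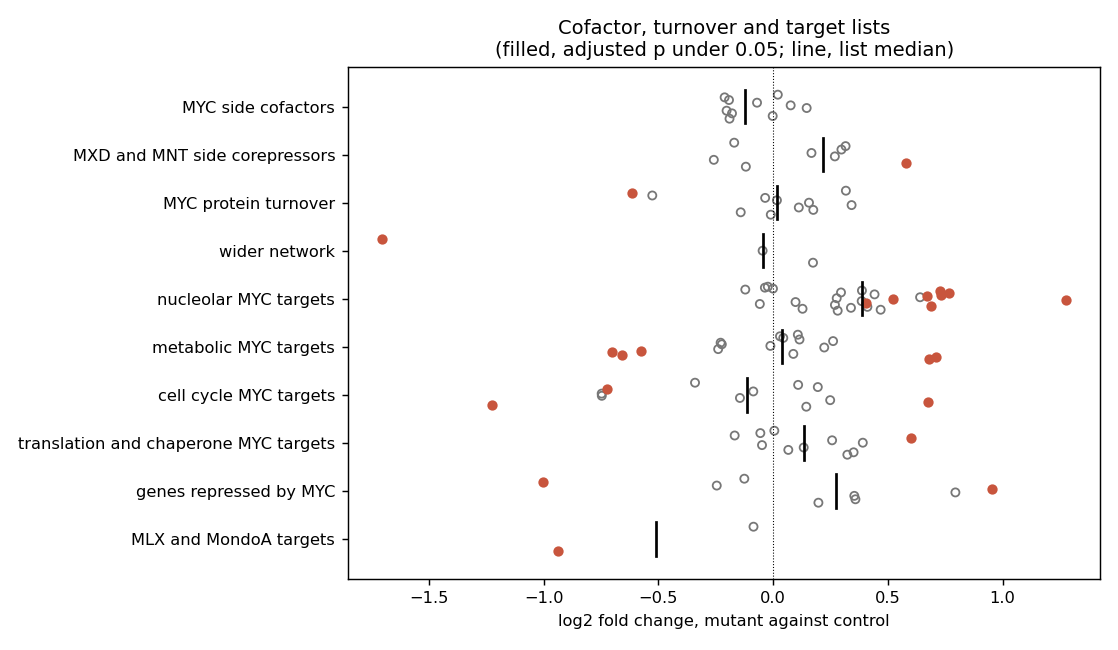
Log2 fold change, mutant against control (horizontal axis), of each tested gene of the cofactor, corepressor, turnover, partner and target lists; filled points passed an adjusted p-value of 0.05 and the black line is the list median. In the nucleolar targets all 8 filled points are on the higher side and the median is 0.39, and the metabolic targets have filled points on both sides of 0.

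The genes whose pattern over the 9 libraries was most like that of a MYC gene were sought among the 9349 tested genes whose mean level was 10 CPM or more, by the root mean square difference of centred log2 CPM. For *Myc* they were *Zfp84* (difference 0.101), *Cdc73* (0.101), *Casc4* (0.108) and *Fbxo30* (0.112), with log2 fold changes of 0.50, 0.43, 0.49 and 0.50. For *Mycn* they were *Srcrb4d* (0.127), the predicted gene *Gm8113* (0.190), *Abcb8* (0.197) and *Rhpn2* (0.198), with log2 fold changes of -1.001, -0.86, -0.77 and -0.96. These fold changes follow from the way the genes were chosen.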

How the data were processed

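The deposited table gives, for each gene, read counts per library that the authors obtained from poly(A)-selected, amplified cDNA sequenced without strand information; the submitters' processing notes name STAR, DESeq2 and mm10. Coordinates are those of the table (GRCm38). The deposited FPKM values (100% of them within 1% of a recalculation from the counts), the authors' mean normalized signal per genotype, log2 fold changes and p-values were used in no result.

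Counts of 14990 genes kept by filterByExpr were normalized by TMM and compared with the quasi-likelihood test of edgeR 4.0.16 in R 4.3.3 (robust, Benjamini-Hochberg, threshold 0.05), tested on simulated data. Standard errors were obtained as log2 fold change divided by the root of F. Exact permutation tests used the 126 splits of 9 libraries on log2 CPM (prior count 2). Levels per length divide CPM by the table's gene length. Alternatives were RLE and upper-quartile scaling, DESeq2 1.42.0, limma-voom (limma 3.58.1) with quality weights, other filters, 1 surrogate variable (sva 3.50.0), a Y-linked covariate and each library left out. Figures used Python 3.11.15 and matplotlib 3.10.9. Depth was 21040536 to 23986458 counts per library.

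Members and lists were chosen with earlier results of these data known; the lists were written from textbook knowledge. Named were all members, *Uqcrq*, the wider partners, up to 4 called genes with the smallest adjusted p of each list (or the smallest where none passed), and 4 nearest profiles each for *Myc* and *Mycn*. *Pkm*, *Hk2*, *Gpi1*, *Arrdc4*, *Fbxw7*, *Ndrg1*, *Gas1*, the 4 kinase inhibitor genes and the markers *Pecam1*, *Krt8* and *Calb1* were named after the data were seen. The alternatives for single genes outside the network were also added after the data were seen. Values of some single genes of the marker and cofactor lists are not reported here.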

Additional observations from a re-analysis of the deposited data

Results flagged for a closer look

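*Mxd3* in control replicate 71, at 33.6 CPM against 18.0 to 20.3 CPM in the other 3 control libraries, was the single case in which a library stood far from its group by the ratio of its gap to the group's range. The check was made on 30 groups, and since it picks about 1 in 20 by chance, 1.5 would be picked among 30. Without this library the log2 fold change of *Mxd3* was 0.17 (adjusted p = 0.450), against -0.08 with all libraries, and neither passed the threshold. The cause was not tested.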

How the results depend on the processing

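No paired analysis was possible because the labels give no litter or other pairing. The replicate numbers run across both groups and mark no pairs. The number of network genes past the threshold, 1 in all, was 3 with DESeq2 (*Myc*, *Mycn* and *Mnt*), 5 with limma-voom (also *Max* and *Mlx*), 2 without a count filter and 2 with 1 surrogate variable, and 1 to 3 with a library left out, 3 being without mutant replicate 74. *Mycn* was among them each time. Over all genes the number was 2225, 4858 with limma-voom and 1046 (without control replicate 73) to 3136 (without mutant replicate 74) with a library left out, where control replicates 71 and 72 and mutant replicate 78 gave 1354, 1272 and 1336.

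With DESeq2, where 21.2% of all genes passed, 13 nucleolar, 5 cell cycle and 2 translation and chaperone targets passed. With limma-voom, where 32.4% of all genes passed, these counts were 15, 6 and 4, and 3 corepressors passed. With 1 surrogate variable 20.8% of all genes passed. The counts were then 13 nucleolar and 4 translation targets, 1 cofactor, 3 corepressors, 3 turnover genes and 1 gene repressed by MYC. That last list also gave 1 without a filter (7.35% of all genes) and with the Y-linked covariate (12.1%), under which 0 of the wider partners passed. With a library left out, 6.85 to 21.2% of all genes passed. The counts were then 5 to 12 for nucleolar, 1 to 4 for cell cycle and 0 to 3 for translation targets. They were 1 to 2 for repressed genes, 0 to 1 for corepressors and 0 to 1 for wider partners. Metabolic targets (4 to 5) and MLX targets (1) moved little.

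Signs turned for genes near 0. *Mxd3* was 0.083 with limma-voom and -0.18 to 0.17 with a library left out. *Mxd4* was -0.014 with 1 surrogate variable, -0.0084 with the Y-linked covariate and -0.021 to 0.13 with a library left out. *Mxi1* was 0.058 with 1 surrogate variable and -0.13 to 0.057 with a library left out. *Mlxip* was 0.14 with 1 surrogate variable, 0.058 with the Y-linked covariate and -0.25 to 0.077 with a library left out. Of 680 values for 40 named genes, 599 kept direction and side of the threshold, 45 lost the call, 21 gained it and 15 changed sign. The difference in MYC to repressor ratio, 0.50, was 0.54 without *Mnt* and 0.18 to 0.74 with a library left out. The causes were not tested. Reads limit *Mycl*, *Mlxipl* and *Cdkn2b*, with as few as 16, 20 and 3 in a library.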

Other observations

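The E-box letters CACGTG were also counted in the promoters of the other lists, as a description with no test. They were held by 7 of 21 nucleolar targets with a promoter window, 6 of 11 translation and chaperone targets, 4 of 15 metabolic targets and 1 of 9 cell cycle targets, against 11.6% of tested genes. Among the genes repressed by MYC 0 of 6 windows held them, as did 0 of 6 of the corepressors, 2 of 9 of the cofactors and 1 of 10 of the turnover genes.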
